A study of Mus musculus with 9 samples.

Results

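Primary Leydig cells from the testes of wild-type mice, exposed to triphenyl phosphate (TPhP), were compared with control cells by RNA sequencing, with 3 libraries from TPhP cells and 3 from control cells. The comparison covered the 12369 genes, of 19058 in the deposited table, that reached at least 1 FPKM (fragments scaled to transcript length and to the fragments mapped) in 3 or more of all 9 libraries. The other 3 libraries came from cells exposed to diphenyl phosphate (DPhP). They entered the same model and are set beside TPhP only for some genes near the end. TPhP is an organophosphate ester used as a flame retardant and plasticiser, and DPhP is a metabolite of it that lacks a phenyl ester. All groups share the wild-type genotype, the tissue and the cell type, while the sources used here give no dose, exposure time or vehicle. Nor do they say whether replicate libraries stem from separate animals or cultures, so a p-value measures only the spread among these libraries, and that spread may be technical.

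Leydig cells lie between the seminiferous tubules and make testosterone from cholesterol, which they take up, store as esters and also synthesise. The genes of synthesis and uptake are switched on by sterol regulatory element binding proteins (SREBPs). When membrane sterol is plentiful, INSIG proteins retain SREBP and its escort SCAP in the endoplasmic reticulum, and when it is low the complex moves to the Golgi, where SREBP is cut and released to the nucleus. NF-Y, which binds the CCAAT box, is a common partner of SREBP at such promoters.

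The 6 libraries were alike in summed FPKM, in the number of genes that reached 1 FPKM and in most cell type markers. Since FPKM is already scaled to the fragments mapped, its sum does not give the depth of a library. The sum of FPKM was 419107 to 422363 in TPhP libraries and 421963 to 428928 in control libraries, and 12021 to 12048 genes in TPhP libraries and 12049 to 12120 in control libraries reached 1 FPKM. Genes listed at 0 numbered 1977 to 2066 in TPhP libraries and 1743 to 2002 in control libraries. Summed Leydig cell markers stood at 1759 to 1828 FPKM in TPhP libraries and 1670 to 1785 FPKM in control libraries, and none of their 6 tested members was called. Among these defining markers the steroid enzyme genes Cyp17a1, at 0.09 to 0.25 FPKM in TPhP libraries and 0.08 to 0.19 FPKM in control libraries, and Hsd17b3, at 0 to 0.04 FPKM in TPhP libraries and 0 in control libraries, were nearly absent. Summed stromal fibroblast markers stood at 3043 to 3116 FPKM in TPhP libraries and 3316 to 3363 FPKM in control libraries, with 1 of 8 members higher and 2 lower, and none lower without the first control or first TPhP library. Summed macrophage markers stood at 1293 to 1305 FPKM in TPhP libraries and 1351 to 1366 FPKM in control libraries, with 2 of 11 tested members lower, and 1 without the third control or second TPhP library. No marker of either list was at 0 in all 6 libraries. These 2 sums did not overlap between the groups, and the part of such cells in the results below was not tested. Most of the macrophage sum was Lyz2, at 1002 to 1022 FPKM in TPhP libraries and 1046 to 1078 FPKM in control libraries. Cd68, the next macrophage marker in level, overlapped, at 120.17 to 123 FPKM in TPhP libraries and 114.3 to 122.31 FPKM in control libraries. In bulk RNA, fewer cells of a type and less RNA per cell cannot be told apart.

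The response to TPhP was small in size and spread over many genes. By limma on log2(FPKM + 1), 769 genes passed an adjusted p of 0.05, which is 6.22% of those tested, with 319 higher in TPhP libraries (2.58%) and 450 lower (3.64%). The median of the absolute log2 fold change was 0.21 over the called genes and 0.06 over all tested genes. Only 271 called genes passed 1.2-fold, of which 94 were higher and 177 lower, and 27 passed 1.5-fold, of which 8 were higher and 19 lower. All fold changes are TPhP over control on the log2(FPKM + 1) scale, which understates the change of genes with low values. The 3 TPhP and 3 control values did not overlap for 3382 genes (27.3% of those tested), and 768 of the called genes were among them.

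The direction of the split depended on scaling. As deposited, 41.5% of the called genes were higher in TPhP libraries, whereas with each library rescaled to a common sum 426 were higher and 358 lower, so that 54.3% were higher. The median of all tested genes stayed within 0.02 of 0 under that rescaling, median-of-ratios size factors and quantile normalization. The share called grew with the level of expression. Of the 3223 genes with a mean under 5 FPKM 117 were called (3.63%), and of the 699 genes with a mean of at least 100 FPKM 100 were called (14.3%), 27 of them higher and 73 lower.

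**Figure D1:**
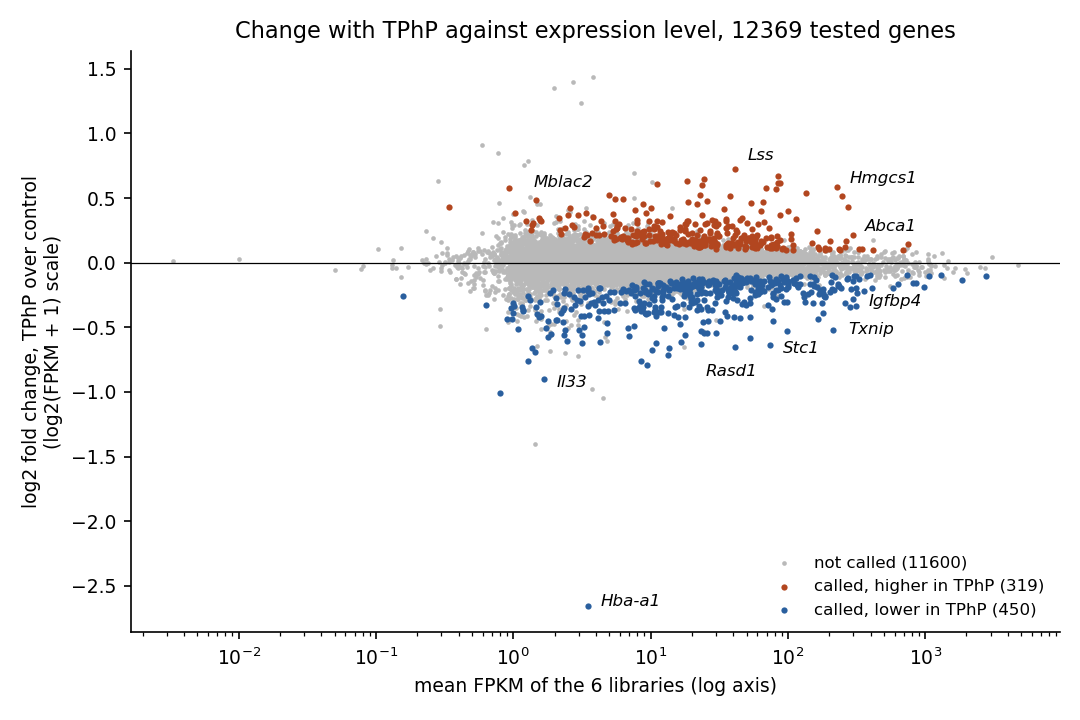
Each point is 1 of the 12369 tested genes, placed by its mean FPKM over the 6 TPhP and control libraries (log axis) and its log2 fold change, TPhP over control. The 319 genes called higher and the 450 called lower form narrow bands that reach closer to 0 at high FPKM, and 27 called genes lie past 1.5-fold.

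Many calls rested on single libraries. The number called was 413 without the second TPhP library, 436 without the first and 581 without the third, and 504, 444 and 559 without the first, the second and the third control library. Without a DPhP library, which bears only on the estimate of the spread, it was 664 to 775. The genes called whichever library was left out numbered 333 (43.3% of the calls), with 127 higher and 206 lower. The genes described below belong to these 333 unless a lost call is stated.

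**Figure D2:**
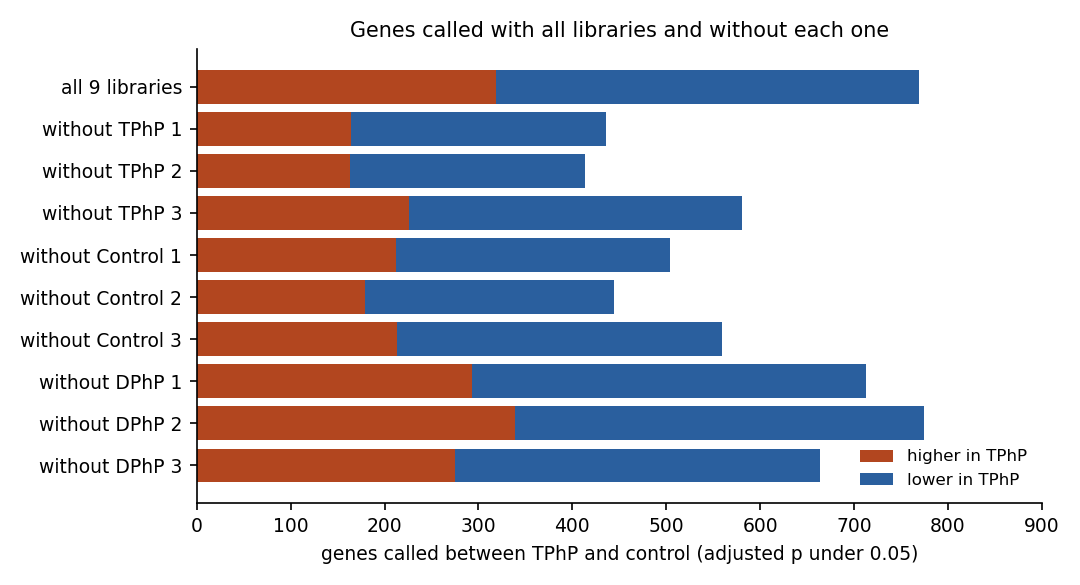
Bars give the number of genes called between TPhP and control with all 9 libraries and without each, split into higher and lower in TPhP libraries. The count was 769 with all libraries and 413 to 581 without any 1 of the TPhP or control libraries, and genes lower in TPhP libraries were the larger part in every bar.

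The 20 enzymes that build cholesterol from acetyl-CoA rose almost throughout. Of them 19 rose with TPhP and none fell (95% called, beside 6.22% over all tested genes). The median log2 fold change was 0.49, against 0.0061 over all tested genes. The same count of 19 was reached without any single library and under every scaling tried. The 1 member without a call was Ebp, the sterol isomerase, at 29.2, 28.6 and 28.8 FPKM in TPhP libraries, against 26.3, 27.5 and 26.5 FPKM in control libraries (log2 fold change 0.11, SE 0.033, adjusted p = 0.0881). Its groups did not overlap, but its difference was smaller than that of any other enzyme.

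Promoters of these genes in the RefSeq tables (GRCm38.p6, 250 bases before to 50 after the start site) were available for 15 of the 20, with 18 windows in all since some genes have several start sites. A gene is counted if any of its windows holds a motif. A CCAAT box (CCAAT on either strand) was found for 14 of the 15 genes, Acat2 being the exception, against 43.3% of tested genes that were not called. By window the count was 14 of 18, against 37.4% of all windows in the tables. GC boxes (GGGCGG on either strand) were also found for 14 of the 15 genes, against 68.9% of those not called. The sterol regulatory element searched for (TCACNCCAC, either strand) was found for 1 gene and in 1 window, that of Hmgcs1, against 1.33% of genes not called and 1.24% of all windows. The windows shown are those of Hmgcs1, which has a CCAAT box and the sterol regulatory element, and of Lss, the gene of the list with the largest rise. They are given 5′ to 3′ with CCAAT boxes and the sterol regulatory element in capitals, while GC boxes are left in lower case. They lie at chr13:119690101-119690400 on the plus strand and chr10:76531355-76531654 on the plus strand.
Hmgcs1: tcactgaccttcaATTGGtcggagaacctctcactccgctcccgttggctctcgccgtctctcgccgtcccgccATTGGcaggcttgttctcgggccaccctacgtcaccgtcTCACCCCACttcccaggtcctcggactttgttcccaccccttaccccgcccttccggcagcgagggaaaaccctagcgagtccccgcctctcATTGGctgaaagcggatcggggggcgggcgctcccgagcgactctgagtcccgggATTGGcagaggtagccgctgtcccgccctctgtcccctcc
Lss: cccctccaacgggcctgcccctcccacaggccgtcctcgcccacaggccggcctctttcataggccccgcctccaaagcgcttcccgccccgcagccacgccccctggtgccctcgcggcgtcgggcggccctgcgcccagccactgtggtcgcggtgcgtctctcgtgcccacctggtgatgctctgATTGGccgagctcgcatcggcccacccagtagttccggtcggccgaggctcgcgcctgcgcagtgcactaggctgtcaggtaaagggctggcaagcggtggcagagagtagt
The Hmgcs1 window holds 4 CCAAT boxes and 1 sterol regulatory element, and the Lss window holds 1 CCAAT box. Both windows also hold GC boxes, which are not marked. A match to these letters is a description of the sequence and not a bound site.

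The rise ran through the pathway from its first steps. Hmgcs1, which makes HMG-CoA, had 275, 272 and 269 FPKM in TPhP libraries, against 179.96, 179 and 184 FPKM in control libraries (log2 fold change 0.58, SE 0.026, adjusted p = 4.26e-07). Acat2, which joins acetyl-CoA units at the entry to the pathway, had 83.2, 83.9 and 83.4 FPKM in TPhP libraries, against 56.1, 58.6 and 52.4 FPKM in control libraries (log2 fold change 0.58, SE 0.036, adjusted p = 3.59e-06). Every TPhP library stood above every control library for these genes.

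Among the isoprenoid steps, Mvd, the mevalonate diphosphate decarboxylase, had 29.1, 28.2 and 28.5 FPKM in TPhP libraries, against 18.3, 18.98 and 18.2 FPKM in control libraries (log2 fold change 0.60). Fdps, which makes farnesyl diphosphate, had 157, 164 and 158 FPKM in TPhP libraries, against 109, 115 and 105 FPKM in control libraries (log2 fold change 0.54). Sqle, the squalene epoxidase, had 77.8, 78.1 and 75.5 FPKM in TPhP libraries, against 55.4, 57.1 and 53.4 FPKM in control libraries (log2 fold change 0.47). These values were tight within groups, and the gap between the groups was several times the spread. Idi1, the isopentenyl diphosphate isomerase, varied more, with 27.7, 28.3 and 24.9 FPKM in TPhP libraries, against 17.3, 21.6 and 16.9 FPKM in control libraries (log2 fold change 0.52), yet its groups did not overlap either.

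The sterol steps held the largest rises of the list. Lss, which closes squalene epoxide into lanosterol, had 54.9, 49.4 and 51.9 FPKM in TPhP libraries, against 31.2, 32.03 and 29.8 FPKM in control libraries (log2 fold change 0.73, SE 0.042, adjusted p = 2.22e-06). Hsd17b7, a sterol ketoreductase that also acts on sex steroids, had 29.5, 31.3 and 29.8 FPKM in TPhP libraries, against 18.8, 19.1 and 18.7 FPKM in control libraries (log2 fold change 0.65). Tm7sf2, a sterol reductase, had 22.8, 23.2 and 22.01 FPKM in TPhP libraries, against 13.6, 14.3 and 14.98 FPKM in control libraries (log2 fold change 0.63). The groups lay far apart in all of these, and Lss had the largest log2 fold change of the list. Msmo1, the C4-methylsterol oxidase and the most abundant enzyme of the list by FPKM, had 293, 297 and 290.5 FPKM in TPhP libraries, against 205, 213 and 199 FPKM in control libraries (log2 fold change 0.51). At the end of the pathway Dhcr7, a reductase of a late sterol step, rose too, with 38.6, 40.8 and 38.6 FPKM in TPhP libraries, against 28.9, 29.3 and 29.3 FPKM in control libraries (log2 fold change 0.42).

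Of the 19 tested SREBP regulators and other SREBP targets, 13 rose and none fell (68.4% called, beside 6.22% over all tested genes). Their median log2 fold change was 0.20, with 10 to 13 rises as libraries were left out. Insig1, itself a target as well as the retaining protein, had 96.9, 100.02 and 96.1 FPKM in TPhP libraries, against 61.7, 69.5 and 65.9 FPKM in control libraries (log2 fold change 0.57, SE 0.042, adjusted p = 1.34e-05). Its relative Insig2 was not called (log2 fold change 0.06 with a 95% interval of -0.08 to 0.19). Srebf2, which encodes the SREBP most tied to cholesterol genes, had 59.6, 58.7 and 58.3 FPKM in TPhP libraries, against 50.8, 51.9 and 50.1 FPKM in control libraries (log2 fold change 0.20), while Srebf1 was not called (log2 fold change 0.09 with a 95% interval of 0.01 to 0.17). Of the 19 genes 6 had no call.

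Targets that move sterol and activate fatty acids rose as well. Stard4, a cytosolic sterol carrier, had 30.8, 30.8 and 28.6 FPKM in TPhP libraries, against 20.7, 21.6 and 21.7 FPKM in control libraries (log2 fold change 0.48). Acsl3, an acyl-CoA synthetase of the endoplasmic reticulum and lipid droplets, had 14.2, 14.2 and 12.3 FPKM in TPhP libraries, against 8.41, 8.62 and 8.55 FPKM in control libraries (log2 fold change 0.61, SE 0.053, adjusted p = 3.81e-05). The lowest TPhP library of Acsl3, the third, was still well above the highest control library. Acss2, which makes acetyl-CoA from acetate, rose by a log2 fold change of 0.41, and Elovl6, a fatty acid elongase, by 0.30. Scap was called (log2 fold change 0.16, adjusted p = 0.0289), but not without the second or the third control library or the first or the third TPhP library.

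Related lipid pathways gave fewer calls. Of 33 tested genes of phospholipid and triglyceride synthesis, 5 rose and 1 fell (18.2% called, beside 6.22% over all tested genes). Their median log2 fold change was -0.00081. The rises numbered 2 without the second control library or the first or second TPhP library, and 3 without the first control or the third TPhP library. The fall was lost without the second or the third control library or the first or second TPhP library. Etnk1, an ethanolamine kinase, had 15.1, 14.8 and 14.7 FPKM in TPhP libraries, against 13.1, 13.04 and 12.9 FPKM in control libraries (log2 fold change 0.18) and was called whichever library was left out. Among 33 ABC transporters 3 rose and none fell (9.09% called), with 2 or 3 rises as libraries were left out. Of these Abca1, which exports cholesterol to apolipoproteins, had 327, 311 and 314 FPKM in TPhP libraries, against 277, 265 and 279.9 FPKM in control libraries (log2 fold change 0.21).

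Outside lipid synthesis, a pair of neighbouring genes on chromosome 13 rose together. Polr3g, which encodes a subunit of RNA polymerase III, had 7.76, 7.85 and 6.91 FPKM in TPhP libraries, against 5.05, 5.1 and 5.01 FPKM in control libraries (log2 fold change 0.49, SE 0.054, adjusted p = 0.00025). Mblac2, a metallo-beta-lactamase domain protein that acts as an acyl-CoA thioesterase in human cells, had 5.97, 6.1 and 5.94 FPKM in TPhP libraries, against 3.65, 3.88 and 4.13 FPKM in control libraries (log2 fold change 0.52, SE 0.066, adjusted p = 0.000684). Neither gene's groups overlapped. The genes are transcribed away from each other, their start sites lie 404 bases apart, and their promoter windows share 97 bases, chr13:81711167-81711263. The windows are shown because 1 stretch of sequence lies before both genes. That of Mblac2 lies at chr13:81711167-81711466 on the plus strand and that of Polr3g at chr13:81710964-81711263 on the minus strand, each 5′ to 3′ with GC boxes in capitals.
Mblac2: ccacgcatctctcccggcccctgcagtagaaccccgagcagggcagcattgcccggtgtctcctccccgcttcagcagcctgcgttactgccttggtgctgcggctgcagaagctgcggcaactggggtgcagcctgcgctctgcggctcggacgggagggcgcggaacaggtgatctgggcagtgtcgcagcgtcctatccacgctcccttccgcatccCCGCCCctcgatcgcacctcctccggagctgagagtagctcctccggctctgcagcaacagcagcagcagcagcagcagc
Polr3g: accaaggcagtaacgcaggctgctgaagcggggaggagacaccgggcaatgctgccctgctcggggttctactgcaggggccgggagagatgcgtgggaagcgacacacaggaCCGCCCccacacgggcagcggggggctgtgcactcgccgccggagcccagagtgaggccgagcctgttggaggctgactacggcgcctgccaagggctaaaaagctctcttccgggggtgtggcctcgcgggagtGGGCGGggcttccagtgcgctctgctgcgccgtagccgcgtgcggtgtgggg
The Mblac2 window holds 1 GC box and the Polr3g window 2, none of them in the shared 97 bases. GC boxes stood in 35.7% of all windows in the tables and for 68.9% of tested genes without a call.

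Other genes that rose encode receptors, enzymes and secreted proteins. Nr1h4, the nuclear bile acid receptor FXR, had 19.6, 21.2 and 19.1 FPKM in TPhP libraries, against 15.7, 16.6 and 15.7 FPKM in control libraries (log2 fold change 0.30). Cyp11b1, the steroid 11-beta-hydroxylase best known from the adrenal cortex, had 33.7, 33.9 and 32.2 FPKM in TPhP libraries, against 26.4, 28.1 and 26.9 FPKM in control libraries (log2 fold change 0.28), although it has a near copy, Cyp11b2, with which reads could be shared. Kcnk3, a background potassium channel, had 8.93, 9.15 and 9.01 FPKM in TPhP libraries, against 7.51, 6.88 and 6.53 FPKM in control libraries (log2 fold change 0.33). The groups did not overlap in any of them, and the changes were smaller than in most cholesterol enzymes. Dpt, which encodes the matrix protein dermatopontin, had 11.1, 12.2 and 11.8 FPKM in TPhP libraries, against 7.91, 8.34 and 9.1 FPKM in control libraries (log2 fold change 0.42). It stood among the stromal fibroblast markers, whose sum was lower in TPhP libraries. Deptor, an inhibitor of mTOR kinase, rose by a log2 fold change of 0.32, and Slc22a23, an orphan member of the organic ion transporter family, by 0.42.

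**Figure D3:**
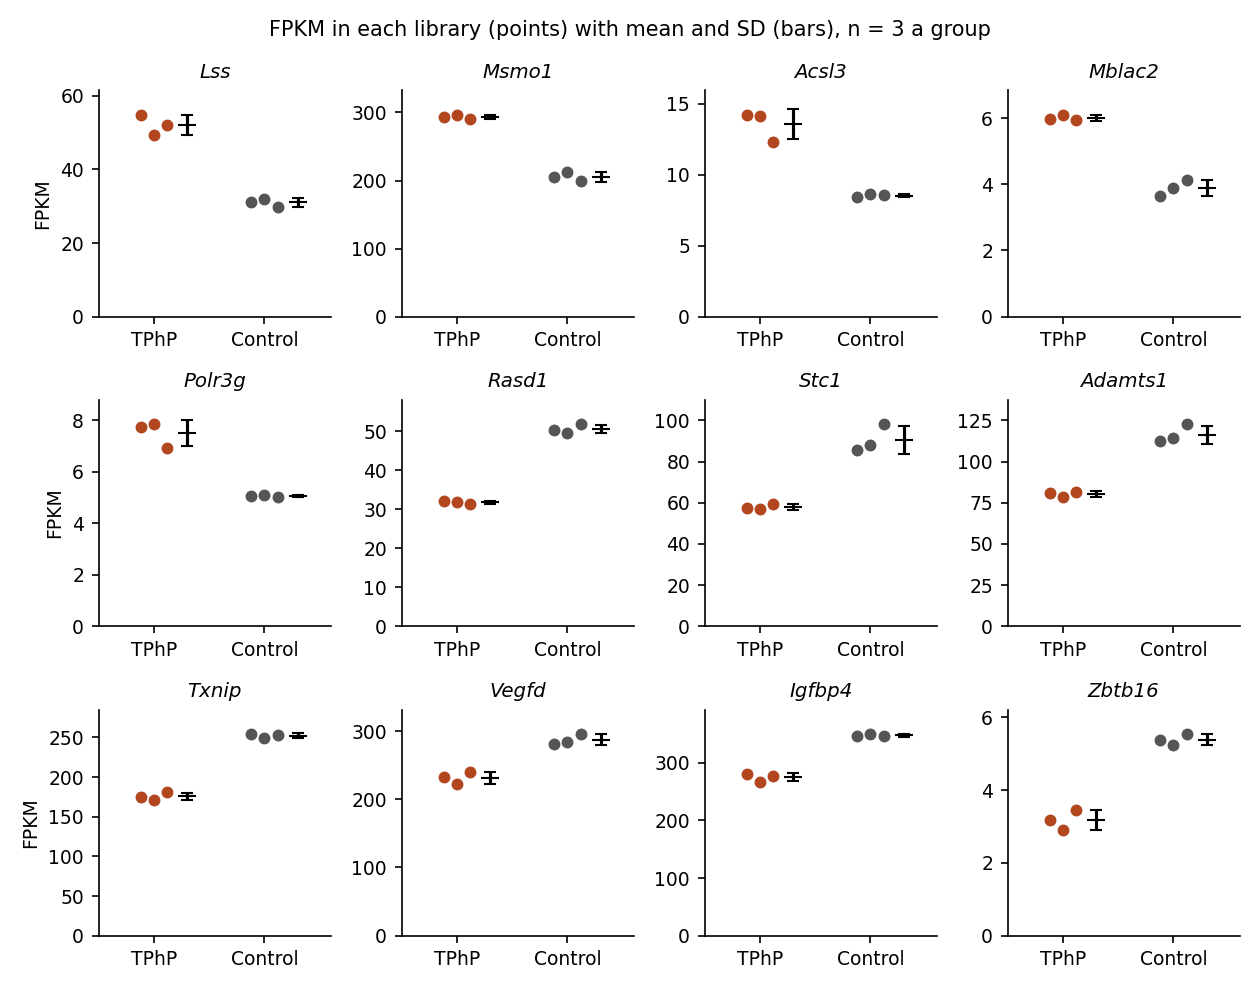
FPKM of 12 genes in each of 3 TPhP and 3 control libraries (points, linear axes from 0), with mean and SD beside them. Lss, Msmo1, Acsl3, Mblac2 and Polr3g stood higher in all TPhP libraries, and Rasd1, Stc1, Adamts1, Txnip, Vegfd, Igfbp4 and Zbtb16 stood lower in all of them.

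Several small GTPases of the Ras branch were among the genes that fell. Of 48 tested Ras and Rap GTPases and their regulators 6 fell and 1 rose (14.6% called, beside 6.22% over all tested genes). The falls numbered 5 or 6 as libraries were left out, and the median log2 fold change was 0.03. Rasd1, a Ras-like GTPase first described as induced by dexamethasone, had 32.1, 31.8 and 31.4 FPKM in TPhP libraries, against 50.3, 49.6 and 51.8 FPKM in control libraries (log2 fold change -0.65, SE 0.03, adjusted p = 4.26e-07). Rasl11b, a Ras-like protein, had 14.1, 14.2 and 14.2 FPKM in TPhP libraries, against 21.4, 20.8 and 22.02 FPKM in control libraries (log2 fold change -0.56). Its relative Rasl11a had 18.5, 17.7 and 20.7 FPKM in TPhP libraries, against 27.6, 28.4 and 27.4 FPKM in control libraries (log2 fold change -0.53). The 3 TPhP values of Rasd1 and of Rasl11b lay within 1 FPKM of each other and far below the control values. Rras2, also called TC21, had 137, 133 and 139 FPKM in TPhP libraries, against 163, 175 and 168 FPKM in control libraries (log2 fold change -0.31). Most members of the family, 41 of 48, were not called.

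Secreted and metabolic genes were among the other falls. Stc1, which encodes stanniocalcin, had 57.3, 56.8 and 59.5 FPKM in TPhP libraries, against 85.4, 88.2 and 98.2 FPKM in control libraries (log2 fold change -0.64, SE 0.049, adjusted p = 1.65e-05). Adamts1, a matrix protease with thrombospondin repeats, had 81.01, 78.3 and 81.7 FPKM in TPhP libraries, against 112, 114 and 123 FPKM in control libraries (log2 fold change -0.53, SE 0.042, adjusted p = 2.26e-05). Cyp7b1, an oxysterol hydroxylase, had 5.33, 5.26 and 5.6 FPKM in TPhP libraries, against 7.96, 9.03 and 8.53 FPKM in control libraries (log2 fold change -0.57). In each the control libraries varied more than the TPhP libraries and still did not overlap with them. Sult1a1, a phenol sulfotransferase, had 8.48, 7.95 and 8.76 FPKM in TPhP libraries, against 13.9, 12.8 and 13.6 FPKM in control libraries (log2 fold change -0.62). Mt3, a metallothionein that binds zinc and copper, had 13.7, 12.9 and 12.02 FPKM in TPhP libraries, against 18.2, 21.1 and 21.5 FPKM in control libraries (log2 fold change -0.61). Ngfr, the low affinity neurotrophin receptor, had 2.42, 2.38 and 2.34 FPKM in TPhP libraries, against 4.28, 4.21 and 3.47 FPKM in control libraries (log2 fold change -0.56). All TPhP values of these genes lay below all control values.

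Txnip, the thioredoxin-interacting protein that restrains glucose uptake, was abundant and fell, with 175, 172 and 180.5 FPKM in TPhP libraries, against 255, 249 and 253 FPKM in control libraries (log2 fold change -0.52, SE 0.026, adjusted p = 6.49e-07). Zbtb16, a zinc finger factor known from spermatogonia and many other cells, had 3.18, 2.91 and 3.46 FPKM in TPhP libraries, against 5.39, 5.23 and 5.55 FPKM in control libraries (log2 fold change -0.61, SE 0.066, adjusted p = 0.000209). It is 1 of 4 germ cell markers called lower, of 12 tested, and the only 1 called without the second control or the second or the third TPhP library. The count was 2 without the first control library. The sum of the germ cell markers was 31.0 to 38.2 FPKM in TPhP libraries and 32.3 to 59.6 FPKM in control libraries, which overlap, and the part of germ cells in the fall of Zbtb16 was not tested. Hba-a1, an alpha globin gene, was listed at 0.82, 0 and 0 FPKM in TPhP libraries, against 6.15, 7.34 and 6.64 FPKM in control libraries. Its near-identical copy Hba-a2 stood at 6.7, 4.25 and 6.01 FPKM in TPhP libraries, against 2.11, 3.61 and 0 FPKM in control libraries, so the split of reads between the copies is uncertain and neither is given a fold change.

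Of 8 motifs searched in the promoter windows, the glucocorticoid response element (GNACA and TGTNC, 3 bases apart) stood in 8 of 350 genes called lower (2.29%), in 2 of 244 called higher (0.82%) and in 26 of 9322 not called (0.279%). By window, over all windows of the tables, the share was 0.475%. The shares of CCAAT boxes were 46.3% in genes called lower, 44.3% in genes called higher and 43.3% in those not called. GC boxes stood in 62.9%, 76.2% and 68.9% of the same groups. E-boxes (CACGTG) stood in 12.6% of genes called lower, 16.4% of those called higher and 11.7% of those not called, and the sterol regulatory element in 2.29%, 0.82% and 1.33%. The shares of GC boxes and E-boxes were thus highest in genes called higher. For kappaB sites (GGG and TTTCC, 2 bases apart) the shares were 3.14%, 1.23% and 1.93%, for cAMP response elements (TGACGTCA) 3.43%, 1.64% and 3.56%, and for AP-1 sites (TGANTCA) 7.43%, 6.56% and 6.09%, in the same order. All were searched on both strands, and these shares carry no test. Of the 8 genes called lower with a glucocorticoid response element, Txnip, Serpina3n and Slc10a6 were called whichever library was left out, and the other 5 were not. Txnip is 1 of the 8, and its window (chr3:96557707-96558006, plus strand) was chosen after these shares were seen, since its fold change was the largest among them. It is given 5′ to 3′ with the response element and 2 CCAAT boxes in capitals.
Txnip: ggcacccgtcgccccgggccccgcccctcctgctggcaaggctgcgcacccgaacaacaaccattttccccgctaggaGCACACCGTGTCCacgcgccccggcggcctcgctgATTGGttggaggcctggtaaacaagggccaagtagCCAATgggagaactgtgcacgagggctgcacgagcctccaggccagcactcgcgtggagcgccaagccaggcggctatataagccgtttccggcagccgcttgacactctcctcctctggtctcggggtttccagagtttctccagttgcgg

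Genes that answer to TGF-beta and BMP were lower in part. Of 19 tested members 7 fell, 1 rose and 11 were not called, with a median log2 fold change of -0.12. The share called was 42.1%, beside 6.22% over all tested genes. The falls numbered 3 without the second control or second TPhP library, 4 without the first TPhP library and 5 or 6 without any of the others. Id1, an inhibitor of differentiation and a direct BMP target, had 116, 121 and 120.1 FPKM in TPhP libraries, against 144, 142 and 134 FPKM in control libraries (log2 fold change -0.23). Smad6, the inhibitor of BMP signalling, had 17.6, 18.8 and 20.5 FPKM in TPhP libraries, against 23.9, 25.7 and 24.6 FPKM in control libraries (log2 fold change -0.37). All TPhP values of these genes lay below all control values. The member that rose was Tgfbi, a secreted adhesion protein, with 21.9, 24.6 and 23.9 FPKM in TPhP libraries, against 18.6, 18.5 and 19.4 FPKM in control libraries (log2 fold change 0.30).

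Binding proteins of insulin-like growth factors were among the falls. Of 9 tested members of the growth factor axis 4 fell and none rose (44.4% called, beside 6.22% over all tested genes). This family lies under the 10 tested members set for describing a family, so its share rests on few genes. The falls numbered 3 or 4 as libraries were left out, and the median log2 fold change was -0.12. Igfbp4, an abundant secreted binding protein, had 281, 267 and 277 FPKM in TPhP libraries, against 346, 350.2 and 347 FPKM in control libraries (log2 fold change -0.34, SE 0.031, adjusted p = 6.05e-05). Igfbp6, which prefers IGF2, had 221, 226 and 229 FPKM in TPhP libraries, against 267, 258 and 249.5 FPKM in control libraries (log2 fold change -0.19). Igfbp3, the main carrier in blood, had 37.8, 37.7 and 39.4 FPKM in TPhP libraries, against 43.5, 44.7 and 42.7 FPKM in control libraries (log2 fold change -0.18). The fourth, Igfbp2, fell by 0.21 on the log2 scale, but not without the second control or the first or second TPhP library.

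Among 35 receptor tyrosine kinases and their ligands 4 fell and none rose (11.4% called, beside 6.22% over all tested genes). As libraries were left out the falls numbered 3 or 4 and the rises 0 or 1. Vegfd, a growth factor of lymphatic vessels, had 232, 222 and 239.7 FPKM in TPhP libraries, against 281, 285 and 296 FPKM in control libraries (log2 fold change -0.31, SE 0.033, adjusted p = 0.000195). Gas6, the ligand of the TAM receptors that bind dying cells, had 921, 899 and 930.05 FPKM in TPhP libraries, against 1074, 1036 and 1025 FPKM in control libraries (log2 fold change -0.19). Both are ligands, and the difference of Gas6 was the larger in FPKM and the smaller on the log2 scale. Of 20 tested neuropeptides, peptide hormones and processing genes 4 fell and 1 rose (25% called), with 3 to 5 falls as libraries were left out. The rise was lost without the first or second control library or the first or second TPhP library. Npr3, the clearance receptor of natriuretic peptides, had 21.3, 22.7 and 21.8 FPKM in TPhP libraries, against 30.4, 29.2 and 31.1 FPKM in control libraries (log2 fold change -0.45). Agt, angiotensinogen, fell by 0.23 on the log2 scale and Adm, adrenomedullin, by 0.30.

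Of 44 aldehyde and alcohol dehydrogenases 6 fell and 3 rose (20.5% called, beside 6.22% over all tested genes), with a median log2 fold change of 0.02. As libraries were left out the falls numbered 4 to 6 and the rises 2 to 4. Members that act on retinoids were called in both directions. Rdh10, the retinol dehydrogenase of the first step, had 20.3, 19.9 and 20.4 FPKM in TPhP libraries, against 26.2, 26.2 and 26.2 FPKM in control libraries (log2 fold change -0.36). Aldh1a2, the retinaldehyde dehydrogenase of the second step, had 201, 199.7 and 199 FPKM in TPhP libraries, against 228, 235 and 232 FPKM in control libraries (log2 fold change -0.21). Dhrs3, a reductase that returns retinaldehyde to retinol, had 90.4, 83.9 and 90.3 FPKM in TPhP libraries, against 109.99, 109.8 and 107 FPKM in control libraries (log2 fold change -0.30). These 3 fell without overlap between the groups. Rdh11, which reduces retinaldehyde and related aldehydes, rose, with 24.9, 25.5 and 24.1 FPKM in TPhP libraries, against 20.3, 20.5 and 21.4 FPKM in control libraries (log2 fold change 0.25). Aldh1a1, an abundant retinaldehyde dehydrogenase, had 2642, 2716 and 2715 FPKM in TPhP libraries, against 2864, 2926 and 2874 FPKM in control libraries (log2 fold change -0.10), but its call was lost without any 1 of the TPhP or control libraries or without the first DPhP library.

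Cytokine and complement genes moved in part. Of 29 tested cytokines and their receptors 5 fell and 1 rose (20.7% called, beside 6.22% over all tested genes). The falls numbered 2 without the second control or second TPhP library and 3 without the first or the third TPhP library. Il33, an alarmin of the interleukin-1 family, had 0.87, 0.9 and 0.86 FPKM in TPhP libraries, against 2.59, 2.42 and 2.48 FPKM in control libraries (log2 fold change -0.90, SE 0.065, adjusted p = 1.3e-05). Il4ra, a receptor chain for interleukins 4 and 13, had 40.9, 39.03 and 42.6 FPKM in TPhP libraries, against 53.2, 50.6 and 49.5 FPKM in control libraries (log2 fold change -0.32). Both had no overlap, with Il33 the larger change at a far lower level. Of 24 complement, coagulation and fibrinolysis genes 6 fell and 2 rose (33.3% called). The falls numbered 3 without the second control library or without any single TPhP library, while the rises numbered 0 without the second or the third control library or the third TPhP library and 1 without the first control or the first or second TPhP library. Serping1, the C1 inhibitor, had 62.2, 61.96 and 62.99 FPKM in TPhP libraries, against 70.6, 74.2 and 73.2 FPKM in control libraries (log2 fold change -0.22). Its groups did not overlap.

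The calls in the cell junction list and among laminin, nidogen and perlecan genes were all lower. Of 23 tested junction genes 3 fell and none rose (13.04% called, beside 6.22% over all tested genes). The 3 falls were called whichever library was left out. Cldn10, a claudin of tight junctions, had 1.73, 1.64 and 2 FPKM in TPhP libraries, against 2.77, 3.25 and 3 FPKM in control libraries (log2 fold change -0.52). Nectin2, an adhesion protein that pairs cells in the testis, had 48.2, 45.4 and 50.5 FPKM in TPhP libraries, against 57.95, 59.8 and 56.8 FPKM in control libraries (log2 fold change -0.27). Cdh11, a mesenchymal cadherin, fell by 0.19 on the log2 scale. Of 13 laminin, nidogen and perlecan genes 3 fell and none rose (23.1% called), with 2 or 3 falls as libraries were left out. Among the falls were Nid2, by 0.27, and Lamb2, by 0.23 on the log2 scale. The highest log2 fold change among the junction genes was 0.11 and their median was 0.01, so the falls were of single members. Other adhesion families held rises too. Of 16 tested integrins 1 rose, Itgb8, and none fell (6.25% called). Of 38 tested cadherins and protocadherins 1 rose, Pcdhgc3, and 1 fell, Cdh11 (5.26% called). The rise of Pcdhgc3 was lost without the second or the third control library or any single TPhP library. Both shares lie near the 6.22% over all tested genes.

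In the other signalling lists most calls were lost with 1 library. The shares called were 26.7% of Wnt, 15.4% of Hedgehog, 10.5% of ERK and 18.5% of insulin and mTOR genes. Over all tested genes the share was 6.22%. Of 15 tested Wnt target and feedback genes 3 fell and 1 rose, with 1 fall without the second TPhP library and no rise without the third control library. Lgr6, a receptor for R-spondins, was called throughout, with 2.04, 1.76 and 1.98 FPKM in TPhP libraries, against 2.55, 2.81 and 2.82 FPKM in control libraries (log2 fold change -0.35). Of 13 Hedgehog pathway genes 2 fell, the coreceptor genes Gas1 and Boc, with none without the second control or second TPhP library and 1 without the first TPhP library. Of 19 ERK feedback and target genes 2 fell, Myc and Dusp5, with none without any single control library and 1 without any single TPhP library. Of 27 insulin and mTOR signalling genes 3 rose and 2 fell, and the members called whichever library was left out were Deptor, described above, and Foxo3. Foxo3, a forkhead factor that insulin signalling keeps out of the nucleus, had 19.9, 19.9 and 20.5 FPKM in TPhP libraries, against 23.4, 22.2 and 22.9 FPKM in control libraries (log2 fold change -0.18).

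**Figure D4:**
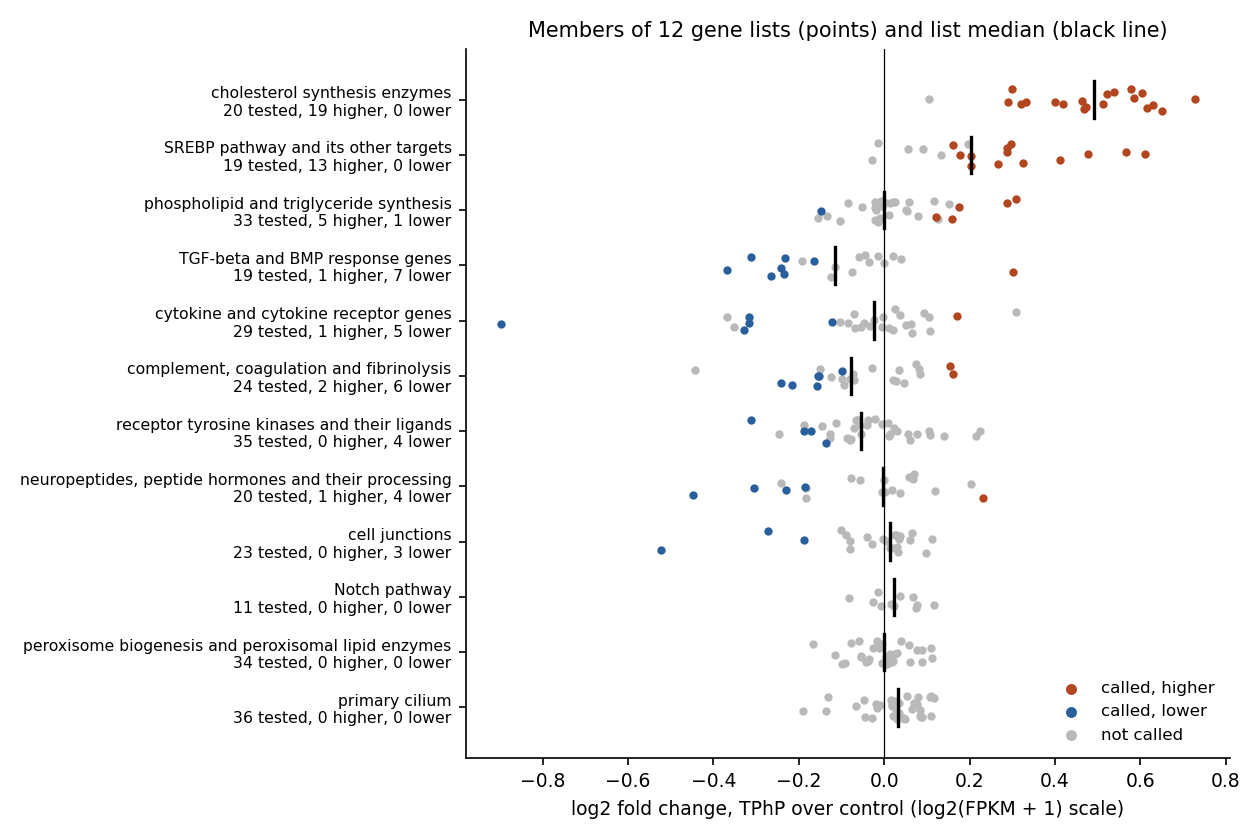
Each point is a tested member of 1 of 12 gene lists, placed by its log2 fold change, TPhP over control, with the list's median as a black line and the calls coloured. Cholesterol enzymes stood apart on the right with a median of 0.49, TGF-beta and BMP response genes had a median of -0.12, and the Notch, peroxisome and primary cilium lists held no called member.

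Some groups had no called member, which in small groups lies near the 6.22% called over all tested genes. Among the lists these were iron and haem metabolism (30 tested genes), peroxisome biogenesis (34), the primary cilium (36) and the Notch pathway (11). Of 83 gene families with at least 10 tested members, 17 had none. They included 78 mitochondrial ribosomal proteins, whose log2 fold changes ran from -0.19 to 0.13, 47 subunits of respiratory complex I (-0.25 to 0.12), 48 proteasome subunits (-0.17 to 0.16) and 55 Rab GTPases (-0.15 to 0.27). Family medians ran from -0.10 to 0.07. The precision bears on this. On the log2(FPKM + 1) scale, 10072 tested genes (81.4%) had a 95% interval of the difference within 1.2-fold in either direction. For 12146 (98.2%) it lay within 1.5-fold. Larger changes on that scale are thus outside the intervals of most single genes, while smaller ones might not be detected. For genes with low values the same bounds allow larger changes in FPKM, and 3223 tested genes had a mean under 5 FPKM.

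Some called genes were next to each other in the order of tested genes along a chromosome. Of 767 called genes with a next tested gene, 83 (10.8%) had a called one there, beside 6.22% called over all tested genes. Of these pairs 24 were both higher, 40 both lower and 19 opposite. Their median gap was 31884 bases and the widest 4363350 bases, so not all of them lie close together. Tmem176a and Tmem176b, overlapping genes of membrane proteins on chromosome 6, both fell, by 0.31 and 0.28 on the log2 scale. Reads of the overlap could not be told apart without strand. Lbh and Lclat1, neighbours on chromosome 17 that were chosen after their values were seen, both fell, with 139, 137 and 143 FPKM in TPhP libraries, against 187, 187 and 194 FPKM in control libraries for Lbh, a transcription cofactor. Lclat1, a lysocardiolipin acyltransferase, had 30.5, 30.6 and 31.5 FPKM in TPhP libraries, against 40.4, 41.7 and 41.99 FPKM in control libraries. No overlap between the groups was seen in either. On chromosome 1 the neighbours Hsd11b1, which regenerates active glucocorticoid, and G0s2, an inhibitor of triglyceride lipase also chosen after its values were seen, went in opposite directions. Hsd11b1 had 9.38, 10.6 and 10.9 FPKM in TPhP libraries, against 17.1, 16.98 and 16.2 FPKM in control libraries (log2 fold change -0.66) and G0s2 had 4.79, 4.26 and 4.2 FPKM in TPhP libraries, against 3.32, 3.24 and 3.16 FPKM in control libraries (log2 fold change 0.35).

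Values in DPhP libraries are set beside these for some genes, although whether the doses and times matched those of TPhP is not given. TPhP and DPhP libraries differed for 8495 tested genes (68.7%), so a difference between the exposures is the common case. Msmo1 had 293, 297 and 290.5 FPKM in TPhP libraries, 99.2, 87.8 and 95.1 FPKM in DPhP libraries and 205, 213 and 199 FPKM in control libraries (TPhP over DPhP on the log2 scale 1.63, 95% interval 1.54 to 1.72, adjusted p = 2.48e-11). Igfbp4 had 281, 267 and 277 FPKM in TPhP libraries, 534, 559 and 518 FPKM in DPhP libraries and 346, 350.2 and 347 FPKM in control libraries (-0.96, 95% interval -1.03 to -0.89, adjusted p = 1.77e-10). For these genes the control lay between the exposures. Rasd1 had 32.1, 31.8 and 31.4 FPKM in TPhP libraries, 8.6, 8.89 and 8.8 FPKM in DPhP libraries and 50.3, 49.6 and 51.8 FPKM in control libraries (1.75, 95% interval 1.68 to 1.81, adjusted p = 1.32e-12), with DPhP further from the control. Stc1 was ordered likewise, with 57.3, 56.8 and 59.5 FPKM in TPhP libraries, 12.1, 11.1 and 11.5 FPKM in DPhP libraries and 85.4, 88.2 and 98.2 FPKM in control libraries (2.23, 95% interval 2.12 to 2.34, adjusted p = 9.03e-12).

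Some of the named genes had no called difference between the exposures, among them Il33 and Acsl3. Il33 had 0.87, 0.9 and 0.86 FPKM in TPhP libraries, 0.74, 0.83 and 0.94 FPKM in DPhP libraries and 2.59, 2.42 and 2.48 FPKM in control libraries (TPhP over DPhP on the log2 scale 0.03, 95% interval -0.11 to 0.18, adjusted p = 0.676). Acsl3 had 14.2, 14.2 and 12.3 FPKM in TPhP libraries, 12, 12.4 and 12.99 FPKM in DPhP libraries and 8.41, 8.62 and 8.55 FPKM in control libraries (0.11, 95% interval -0.00 to 0.23, adjusted p = 0.0803). These intervals do not show that the compounds act alike, and the control libraries are common to the comparisons of both exposures.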

How the data were processed

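The authors deposited 1 table of FPKM values, given to 2 decimals, for 19058 genes in 9 libraries. Per the submitters' processing notes the build was GRCm38.p6. The sources used here name no aligner, counter, annotation or strand setting. Read depth was not established, so no counting interval is given, and genes with low values are the less precise. Values were analysed as log2(FPKM + 1) for genes with at least 1 FPKM in 3 or more of 9 libraries. A single limma fit (version 3.58.1, R 4.3.3) took all 9 libraries, with group means, a variance trend and 6 residual degrees of freedom. Tests are two-sided with Benjamini-Hochberg adjustment over all tested genes, called at an adjusted p under 0.05. The fit was tested on simulated data first. Summaries and figures were made in Python 3.11.15 with pandas 2.3.3, numpy 2.4.6 and matplotlib 3.10.9.

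Named genes were, among called genes with a mean of at least 1 FPKM, no overlap between the groups and no Gm, LOC or Rik symbol, the 20 largest rises and 20 largest falls, the 10 largest of each in mean FPKM, and from each list or family at most 4 called members, by smallest p. Other members of the sterol lists and of described lists were added. The 34 lists, 10 marker lists and 92 symbol families were chosen with earlier results of these data known, and 4 family patterns were corrected after values were seen. The list of long noncoding RNAs was not analysed here. RefSeq matched 99.7% of identifiers, and 80.2% of tested genes had a promoter window. Alternatives were pseudocounts of 0.1 and 0.5, no filter, a mean of at least 5 FPKM, 3 scalings, the 6 libraries compared alone, a replicate block, no variance trend, a minimum of 1.2-fold and leaving out each library. Results of some single genes were left out here.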

Additional observations from a re-analysis of the deposited data

How the results depend on the processing

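The threshold for size mattered most. Tested against a minimum change of 1.2-fold, 44 genes were called between TPhP and control, 19 higher and 25 lower, and 3266 between TPhP and DPhP. Leaving out each library gave 413 to 775 calls against control, with 163 to 339 higher and 250 to 436 lower, and 7966 to 8489 between TPhP and DPhP. The calls against control numbered 733 and 759 with pseudocounts of 0.1 and 0.5, 584 with no filter, 729 of 9187 genes with a mean of at least 5 FPKM, 621 with the 6 libraries compared alone and 614 without a variance trend. Median-of-ratios size factors gave 771 and quantile normalization 779. Deviations from the group mean correlated at -0.055, -0.047 and -0.091 between TPhP and control libraries with the same number. The values were 0.018, 0.075 and 0.10 between TPhP and DPhP, and -0.019, -0.057 and -0.12 between DPhP and control. With 3 libraries a group these correlations cannot decide whether the numbers pair libraries. A replicate block gave 663 calls, 268 higher and 395 lower, and 8458 between TPhP and DPhP. Of the alternative values of the named genes 4961 stayed on the same side of the threshold in the same direction, 1338 lost the call and 0 changed sign, with changes under 9 decimals counted as 0. Such was Col3a1 under quantile normalization, where it held the same rank in every library. Without counts, depth limits what can be said of genes with low values.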
